A study of Arabidopsis thaliana with 11 samples.

Results

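Among 13217 genes that the ATH1 array measured in torpedo-stage embryos and that could be placed in order along the 5 chromosomes of Arabidopsis thaliana, 8 genes formed 4 neighbouring pairs in which both genes were at least 3-fold lower in the mean of the Fe-1 and Ler-0 arrays than in the Col-0 mean. The pairs were AT3G60980 with AT3G61010 on chromosome 3, AT4G19500 with AT4G19510 on chromosome 4, and AT5G45480 with AT5G45500 and AT5G56370 with AT5G56380 on chromosome 5. The members were thus chosen by their values in Fe-1, Ler-0 and Col-0, which are given below as a description. The arrays of the other accessions, Bay-0 and Nw-0 with Ts-1 and Van-0, did not enter that choice. Whether the genes of a pair also moved together in them is the question of the comparisons that follow. An earlier result of these data for AT3G61010 was known when the members were set, so its values there were not unseen. The files name no genome build, so the order of genes was taken from the TAIR10.1 annotation and no positions are given.

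The groups were accessions, natural inbred strains that the labels call wild type, with no transgene or treatment, and RNA came from whole dissected embryos. Ler-0 (Landsberg erecta) carries the erecta mutation and Fe-1 does not, so the arrays pooled as Fe-1/Ler-0 differ in this allele. Fe-1 had 3 arrays and Ler-0, Bay-0 and Nw-0 had 1 each, and these 4 accessions are labelled as dependent on ZWILLE/AGO10 (ZLL), an ARGONAUTE protein, for shoot stem cell maintenance. Ts-1 and Van-0 had 1 array each and Col-0 had 3, and these 3 accessions are labelled as ZLL-independent. The labels call the arrays of Fe-1 and Col-0 biological replicates, one of them names the Ler-0 material Ler-1, and another names the Ts-1 material Tossa del Mar-0. All values are log2 RMA values, so a difference of 1 is a doubling of the signal. Levels of different probe sets are not compared with each other.

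The pair on chromosome 4 belongs to the intracellular immune receptors of plants. AT4G19500 and AT4G19510 are known as RPP2A and RPP2B, a pair of TIR-NBS-LRR proteins that are both needed in Col-0 for resistance to an isolate of the downy mildew pathogen. Such receptors carry a TIR domain for signalling, a nucleotide-binding domain and leucine-rich repeats, their genes often lie side by side, and they are known to vary in sequence and in number between accessions. AT5G56370 and AT5G56380 encode F-box proteins with leucine-rich repeats and an FBD domain, from a large plant family whose F-box members select proteins for ubiquitination, and no more specific role is stated here for either. AT5G45500 encodes a protein with leucine-rich repeats and AT5G45480 a predicted membrane protein with a domain of unknown function. AT3G60980 encodes a tetratricopeptide repeat-like protein and AT3G61010 is annotated as a glycosyl hydrolase.

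No gene is annotated between AT4G19500 and AT4G19510 or between AT5G56370 and AT5G56380. A protein-coding gene lies within each of the other pairs, AT3G60990 in the first and AT5G45490 in the third, and neither was analysed here. The 8 genes had 9 probe sets, because AT3G61010 had a pair of them. Probe sets on the ATH1 array were designed on the Col-0 sequence, so a lower transcript level and a changed or missing probe target in another accession cannot be told apart in these data, and neither can fewer cells of a type and less RNA per cell.

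Array medians lay between 7.57 and 7.71 and lower quartiles between 4.92 and 5.04 after normalisation. Over all probe sets, the correlation was 0.996 to 0.997 within an accession and 0.978 to 0.988 between accessions. None of the 8 embryo markers on the list could be read by name, and AGL62, the 1 of 6 endosperm markers measured, lay between 3.53 and 3.9997 on all arrays. The mean of BAN and DFR, the 2 of 5 seed coat markers measured, differed between arrays. It reached 9.14 and 7.47 in Fe-1 replicates 2 and 3 and 7.52 in Van-0. It was 5.45 in Fe-1 replicate 1 and 4.998 to 6.61 in the others. In Ler-0 the 2 markers parted, with BAN at 5.26 and DFR at 7.97. That DFR value was above the 7.53 of Fe-1 replicate 3 and the 7.43 of Van-0.

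AT4G19500, or RPP2A, had the largest difference of Fe-1/Ler-0 against Col-0 among the 9 probe sets. It was at 4.20, 3.89 and 4.10 in Fe-1, 4.27 in Ler-0, 8.71 in Bay-0, 9.07 in Nw-0, 4.46 in Ts-1, 4.13 in Van-0 and 9.24, 9.02 and 9.08 in Col-0. Its 11 values thus fell into a low set of 6 arrays, all below the lower quartile of their own array, and a high set of 5 arrays. AT4G19510 was at 4.60, 4.61 and 4.51 in Fe-1, 4.94 in Ler-0, 7.45 in Bay-0, 7.25 in Nw-0, 4.46 in Ts-1, 4.50 in Van-0 and 7.28, 7.504 and 7.45 in Col-0. The same 6 arrays were low and the same 5 high for both genes. The low set held ZLL-dependent (Fe-1, Ler-0) and ZLL-independent (Ts-1, Van-0) accessions, and so did the high set.

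In the second pair with no gene between its members, AT5G56380 was at 4.34, 4.49 and 4.63 in Fe-1, 4.56 in Ler-0, 8.83 in Bay-0, 8.55 in Nw-0, 8.75 in Ts-1, 4.53 in Van-0 and 9.07, 9.10 and 9.13 in Col-0. AT5G56370 was at 4.59, 4.56 and 4.70 in Fe-1, 4.87 in Ler-0, 6.54 in Bay-0, 7.80 in Nw-0, 6.36 in Ts-1, 4.98 in Van-0 and 6.90, 6.63 and 6.86 in Col-0. Both F-box genes were low in Fe-1, Ler-0 and Van-0, on the same 5 arrays, and these values lay below the lower quartile of their arrays. They parted in Nw-0, where AT5G56370 was above every Col-0 array and AT5G56380 below every Col-0 array.

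AT5G45500, the leucine-rich repeat gene, was at 4.73, 4.63 and 4.62 in Fe-1, 4.43 in Ler-0, 4.49 in Bay-0, 9.28 in Nw-0, 4.56 in Ts-1, 8.67 in Van-0 and 8.81, 9.07 and 9.02 in Col-0. The low and the high arrays did not overlap, and those of Fe-1, Ler-0, Bay-0 and Ts-1 were below their lower quartiles. AT5G45480, the membrane protein gene, was at 6.73, 6.72 and 6.31 in Fe-1, 7.08 in Ler-0, 7.29 in Bay-0, 8.08 in Nw-0, 6.84 in Ts-1, 8.58 in Van-0 and 8.41, 8.58 and 8.38 in Col-0. Its arrays divided in the same way, but over a narrower range, and no array of it was below its lower quartile.

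The pair on chromosome 3 divided the accessions differently for each gene. AT3G61010 was, by its first probe set, at 4.10, 4.09 and 4.47 in Fe-1, 3.96 in Ler-0, 4.06 in Bay-0, 4.06 in Nw-0, 7.18 in Ts-1, 4.43 in Van-0 and 6.83, 6.63 and 6.76 in Col-0. Only Ts-1 and Col-0 were high for it. AT3G60980 was at 4.55, 4.48 and 4.89 in Fe-1, 5.42 in Ler-0, 5.83 in Bay-0, 6.21 in Nw-0, 6.57 in Ts-1, 6.43 in Van-0 and 6.83, 6.49 and 6.43 in Col-0. Its values formed a gradual order, with Fe-1 lowest, Ler-0 and Bay-0 above it, and Nw-0, Van-0, Ts-1 and Col-0 at the top. The second probe set of AT3G61010 lay between 3.64 and 4.44 and was below the lower quartile on all 11 arrays.

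**Figure D1:**
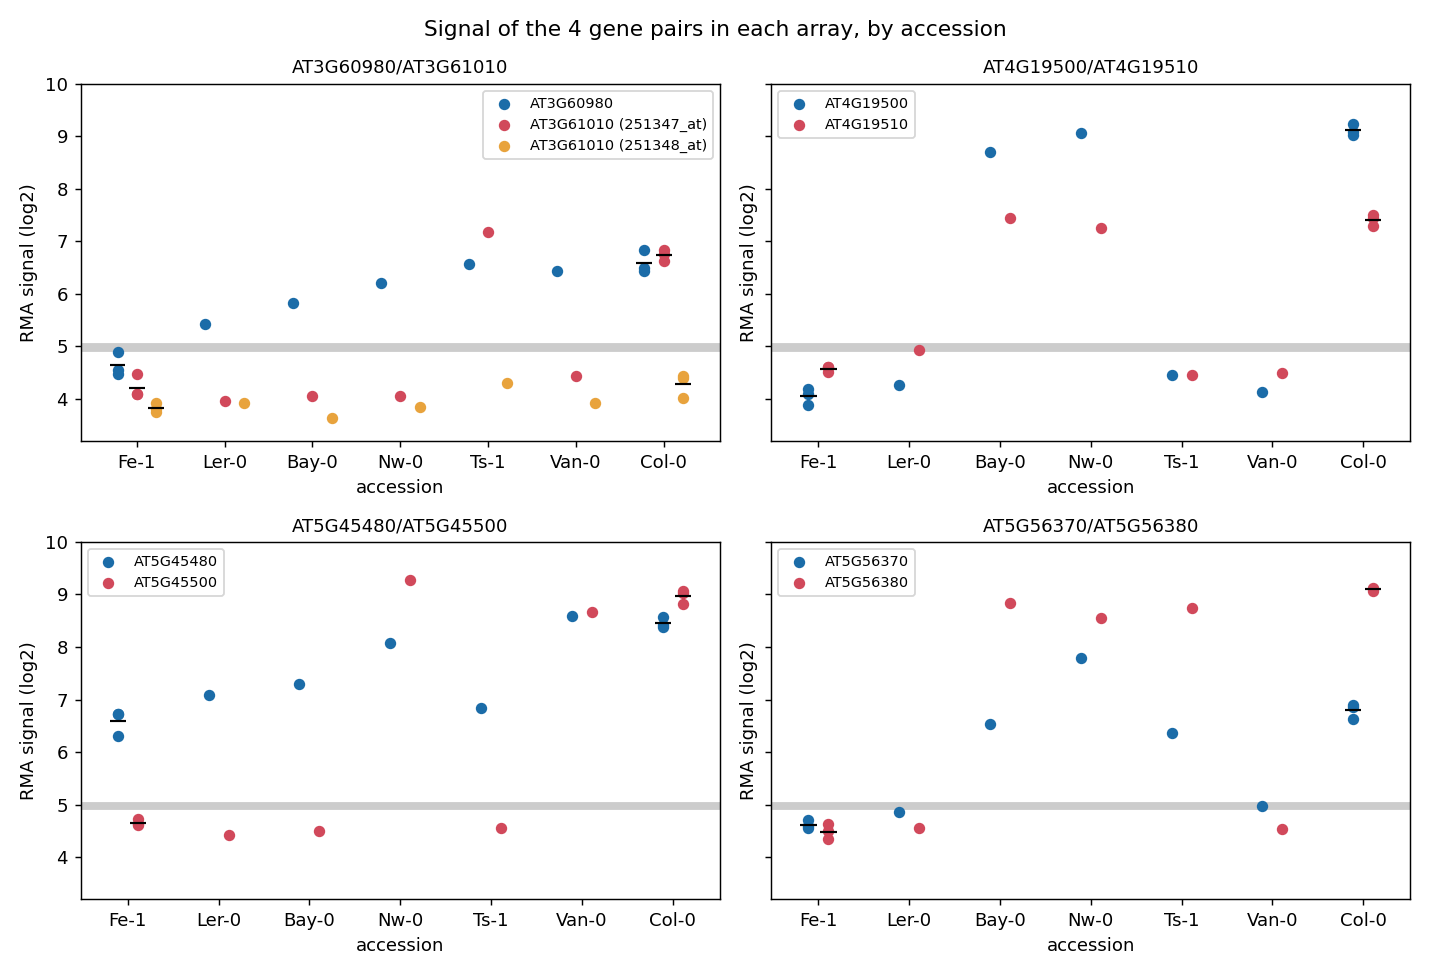
Log2 RMA values (vertical axis) of the 9 probe sets of the 8 genes on the 11 arrays, by accession, with Col-0 last. Points are arrays, black bars are the means of the replicated accessions Fe-1 and Col-0, and the grey band is the range of the array lower quartiles, 4.92 to 5.04. AT4G19500 and AT4G19510 were high in Bay-0, Nw-0 and Col-0, AT5G45480 and AT5G45500 in Nw-0, Van-0 and Col-0, and AT5G56370 and AT5G56380 in Bay-0, Nw-0, Ts-1 and Col-0.

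The difference that chose the members was computed as the 4 arrays of Fe-1 and Ler-0 minus the 3 of Col-0. It was -4.999 for AT4G19500, with 4.11 ± 0.16 in Fe-1/Ler-0 (SD, n = 4) against 9.11 ± 0.11 in Col-0 (SD, n = 3), which is 32.0-fold lower. It was -4.59 (24.1-fold) for AT5G56380 and -4.37 (20.7-fold) for AT5G45500. For the other gene of each of these pairs it was -2.74 (6.70-fold) for AT4G19510, -2.11 (4.33-fold) for AT5G56370 and -1.75 (3.36-fold) for AT5G45480. In the chromosome 3 pair it was -2.59 (6.01-fold) for the first probe set of AT3G61010 and -1.75 (3.36-fold) for AT3G60980, while the second probe set of AT3G61010 differed by -0.44 (1.36-fold) and did not reach 3-fold. Ler-0 alone was 2.23-fold below Col-0 for AT3G60980 and 2.60-fold below it for AT5G45480, so these genes met the limit in the mean, which 3 Fe-1 arrays dominate, and not in Ler-0. Over all probe sets, 0.462% were lower by this rule, and nothing is read from the members' count against it because the contrast chose them.

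Along the chromosomes, 74 genes were lower in Fe-1/Ler-0 and 36 were higher by the same rule, at least 3-fold with an adjusted p under 0.05. The fit behind these p-values took the Ler-0 array and the Fe-1 arrays as replicates of 1 group. Its p-values thus treat arrays, not accessions, as the replicates, and rest mostly on Fe-1 against Col-0. Over all probe sets, 0.242% were higher. Of 13212 pairs of consecutive measured genes, 4 (0.0303%) had both genes lower, 0 had both higher and 0 had 1 gene lower and 1 higher. The 4 were the pairs described here. AT3G60980 and AT5G45480, both 3.36-fold lower, were the members nearest to the limit. The nearest pair outside it was AT1G73510 with AT1G73530, at 2.42-fold and 2.39-fold lower. The number of such pairs rested on the arrays used, and was 7 without Ler-0 and 2 without Fe-1 replicates 2 and 3.

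The seed coat signal differed between arrays of the low groups. Without Fe-1 replicates 2 and 3, the arrays in which BAN and DFR averaged 9.14 and 7.47, the difference was -4.88 for AT4G19500, -2.64 for AT4G19510, -4.39 for AT5G45500, -1.56 for AT5G45480, -4.65 for AT5G56380, -2.06 for AT5G56370, -2.71 for the first probe set of AT3G61010 and -1.597 for AT3G60980. AT5G45480 was then below 3-fold. Van-0, at 7.52 for these markers, was low for the resistance and the F-box pair and high for AT5G45480 and AT5G45500.

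To say for each accession whether the genes of a pair moved together, each value was placed between the mean of the Fe-1 and Ler-0 arrays, set to 0, and the Col-0 mean, set to 1. A position below 1/3 was called low and one above 2/3 high. AT4G19500 and AT4G19510 were both high in Bay-0 (positions 0.919 and 1.01) and Nw-0 (0.991 and 0.941) and both low in Ts-1 (0.0682 and -0.0753) and Van-0 (0.00272 and -0.0601). AT5G56370 and AT5G56380 were both high in Bay-0 (0.879 and 0.942), Nw-0 (1.47 and 0.879) and Ts-1 (0.796 and 0.923) and both low in Van-0 (0.142 and 0.00502). These pairs had the same state in all 4 accessions.

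AT5G45480 and AT5G45500 were both low in Bay-0 (0.333 and -0.0251) and Ts-1 (0.0741 and -0.00998) and both high in Nw-0 (0.783 and 1.07) and Van-0 (1.07 and 0.932), with AT5G45480 in Bay-0 at the very limit. AT3G60980 and AT3G61010 were both high in Ts-1 only (0.991 and 1.17). In Nw-0 and Van-0 AT3G60980 was high (0.785 and 0.913) while AT3G61010 was low (-0.0353 and 0.109), and in Bay-0 AT3G60980 was between the limits (0.567) while AT3G61010 was low (-0.0344).

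Over the 4 pairs and 4 accessions, the genes of a pair had the same state in 13 of 16 cases (81.2%). For genes of different pairs the count was 42 of 96 (43.8%). These shares are given without a test, since the arrays of an accession enter all cases. None of these 4 accessions was low for both genes of all 4 pairs, and none was high for both genes of all 4.

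**Figure D2:**
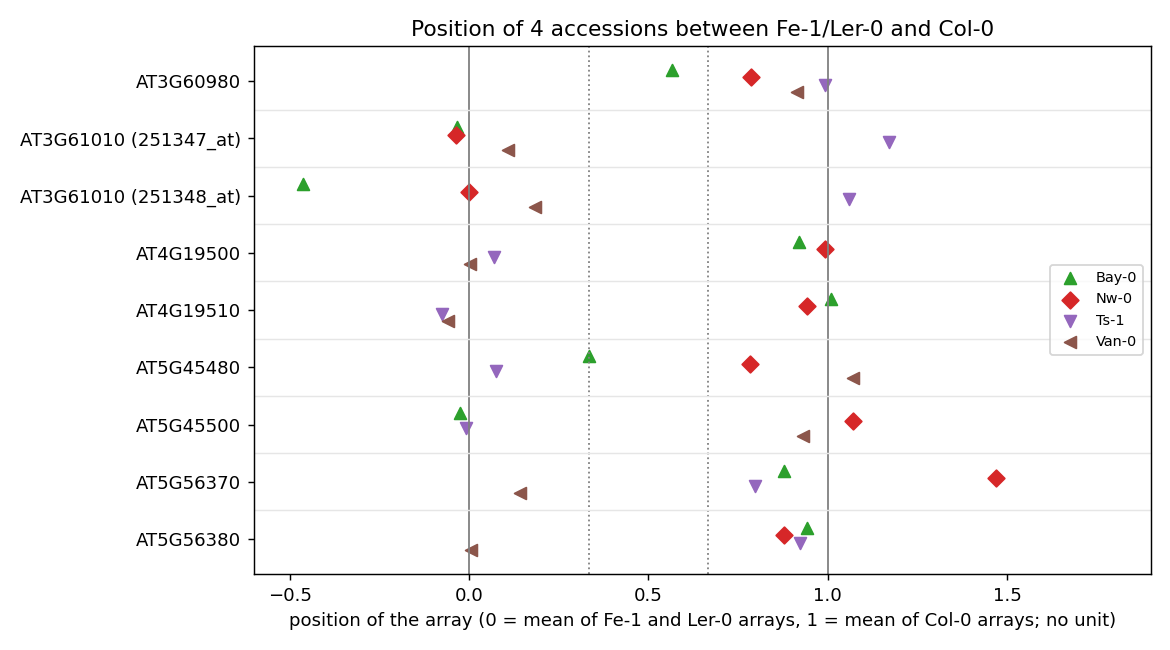
Position of each gene in the 4 accessions outside the choice on a scale where 0 is the mean of the Fe-1 and Ler-0 arrays and 1 is the Col-0 mean. Dotted lines mark the limits that separate low, between and high. Both genes of a pair lie on the same side in 13 of 16 cases, and the 3 exceptions are AT3G60980 with AT3G61010 in Bay-0, Nw-0 and Van-0.

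The ZLL-dependent accessions Bay-0 and Nw-0 were compared with the ZLL-independent accessions Ts-1 and Van-0, in a fit of 1 mean per accession. Its spread came from the replicates of Fe-1 and Col-0, arrays that also chose the members, so the p-values below are not independent of that choice. Of the 9 probe sets, 4 passed an adjusted p under 0.05 and 3-fold, against 0.558% of all probe sets. As the members were chosen for differing between accessions, this count is not read against that share. AT4G19500 was higher by 4.59 (24.2-fold, SE 0.12, adjusted p = 3.2e-06), with a mean of 8.89 in Bay-0/Nw-0 and 4.29 in Ts-1/Van-0, and AT4G19510 by 2.87 (7.30-fold, SE 0.10, adjusted p = 1.62e-05), with 7.35 in Bay-0/Nw-0 and 4.48 in Ts-1/Van-0. For both, each of Bay-0 and Nw-0 was above each of Ts-1 and Van-0. This direction was opposite to that of Fe-1/Ler-0 against Col-0, which are also a ZLL-dependent group and a ZLL-independent accession.

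In the F-box pair AT5G56380 was higher by 2.05 in Bay-0/Nw-0 (4.14-fold, adjusted p = 6.05e-05) and AT5G56370 by 1.498 (2.82-fold, adjusted p = 0.000437), which passed the test but not 3-fold. The difference of AT5G56380 rested on Van-0, without which it was -0.06. That of AT5G56370 also depended on single arrays and ran from 0.81 without Van-0 to 2.19 without Ts-1. The first probe set of AT3G61010 was lower in Bay-0/Nw-0 (-1.75, 3.35-fold, adjusted p = 0.00066), and that rested on Ts-1, without which it was -0.37. A difference of this gene by ZLL dependency was known from these data beforehand. AT3G60980 (-0.48, adjusted p = 0.173), the second probe set of AT3G61010 (-0.37, adjusted p = 0.207), AT5G45480 (-0.03, adjusted p = 0.952) and AT5G45500 (0.27, adjusted p = 0.211) did not pass. For AT5G45500 the small difference averaged opposite states, since it was -2.12 without Nw-0 (adjusted p = 0.00015) and 2.33 without Van-0 (adjusted p = 8.3e-05).

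With only the 4 arrays of this comparison in the limma fit, so that the spread came from the differences between accessions of a group, 0 of the 9 probe sets and 0 of all probe sets passed. The lowest adjusted p among members was then 0.0506, for AT4G19500 and AT4G19510, and 3 members had an unadjusted p under 0.05. The p-values above thus set the difference against the spread of replicates within Fe-1 and Col-0, which single arrays are assumed to share. They do not set it against the spread between accessions of a ZLL group, so they are no test of ZLL dependency.

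Among these 4 accessions 6 comparisons of single arrays could be made. Each sets 1 array against 1, has no replicate check and is given as a difference with no p-value. Over the 9 probe sets and 6 comparisons, 20 of 54 differences were at least 3-fold, against 1.25% over all probe sets and comparisons. The number of the 9 was 1 for Bay-0 minus Nw-0 (background 1.01%), 3 for Bay-0 minus Ts-1 (1.42%), 4 for Bay-0 minus Van-0 (1.49%), 4 for Nw-0 minus Ts-1 (1.16%), 4 for Nw-0 minus Van-0 (1.28%) and 4 for Ts-1 minus Van-0 (1.16%). In the limma fit with the spread of Fe-1 and Col-0, these 20 also had an adjusted p under 0.05, as 1.09% of all did, but that spread came from arrays that chose the members. The comparisons share arrays with each other. Since the members were chosen for differing between accessions, their counts are not read against the background.

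AT4G19500 and AT4G19510 were at least 3-fold apart in each of the 4 comparisons of Bay-0 or Nw-0 with Ts-1 or Van-0. The extremes for AT4G19500 were 4.25 for Bay-0 minus Ts-1 (19.1-fold) and 4.94 for Nw-0 minus Van-0 (30.7-fold), and for AT4G19510 they were 2.75 for Nw-0 minus Van-0 (6.72-fold) and 2.99 for Bay-0 minus Ts-1 (7.93-fold). Between accessions with the same state the differences were small. For Bay-0 minus Nw-0 they were -0.36 for AT4G19500 and 0.20 for AT4G19510, and for Ts-1 minus Van-0 they were 0.33 and -0.04.

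AT5G45500 was lower in Bay-0 than in Nw-0 (-4.79, 27.7-fold) and than in Van-0 (-4.18, 18.2-fold), lower in Ts-1 than in Van-0 (-4.12, 17.3-fold) and higher in Nw-0 than in Ts-1 (4.72, 26.4-fold). AT5G45480 had the same sign in these 4 comparisons, with -0.79, -1.29, -1.74 and 1.24, and reached 3-fold only for Ts-1 minus Van-0. For Bay-0 minus Ts-1, both low for the pair, AT5G45500 differed by -0.07 and AT5G45480 by 0.45. For Nw-0 minus Van-0, both high, AT5G45500 differed by 0.61 and AT5G45480 by -0.50.

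AT5G56380 was higher than in Van-0 by 4.30 in Bay-0, by 4.02 in Nw-0 and by 4.22 in Ts-1, all at least 16.2-fold, and its other differences lay between -0.20 and 0.28. AT5G56370 was higher than in Van-0 by 1.56 in Bay-0, by 2.82 in Nw-0 and by 1.38 in Ts-1, of which that in Nw-0 alone reached 3-fold. It also differed among the accessions high for the pair, at -1.26 for Bay-0 minus Nw-0 and 1.44 for Nw-0 minus Ts-1, where AT5G56380 differed by 0.28 and -0.20.

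AT3G61010, by its first probe set, was lower than in Ts-1 both in Bay-0 (-3.12, 8.67-fold) and in Nw-0 (-3.12, 8.69-fold), and it was higher in Ts-1 than in Van-0 by 2.75 (6.70-fold). AT3G60980 reached 3-fold in none of the 6 comparisons, where its differences ran from -0.74 for Bay-0 minus Ts-1 to 0.14 for Ts-1 minus Van-0. The second probe set of AT3G61010 reached it in none of them either.

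**Figure D3:**
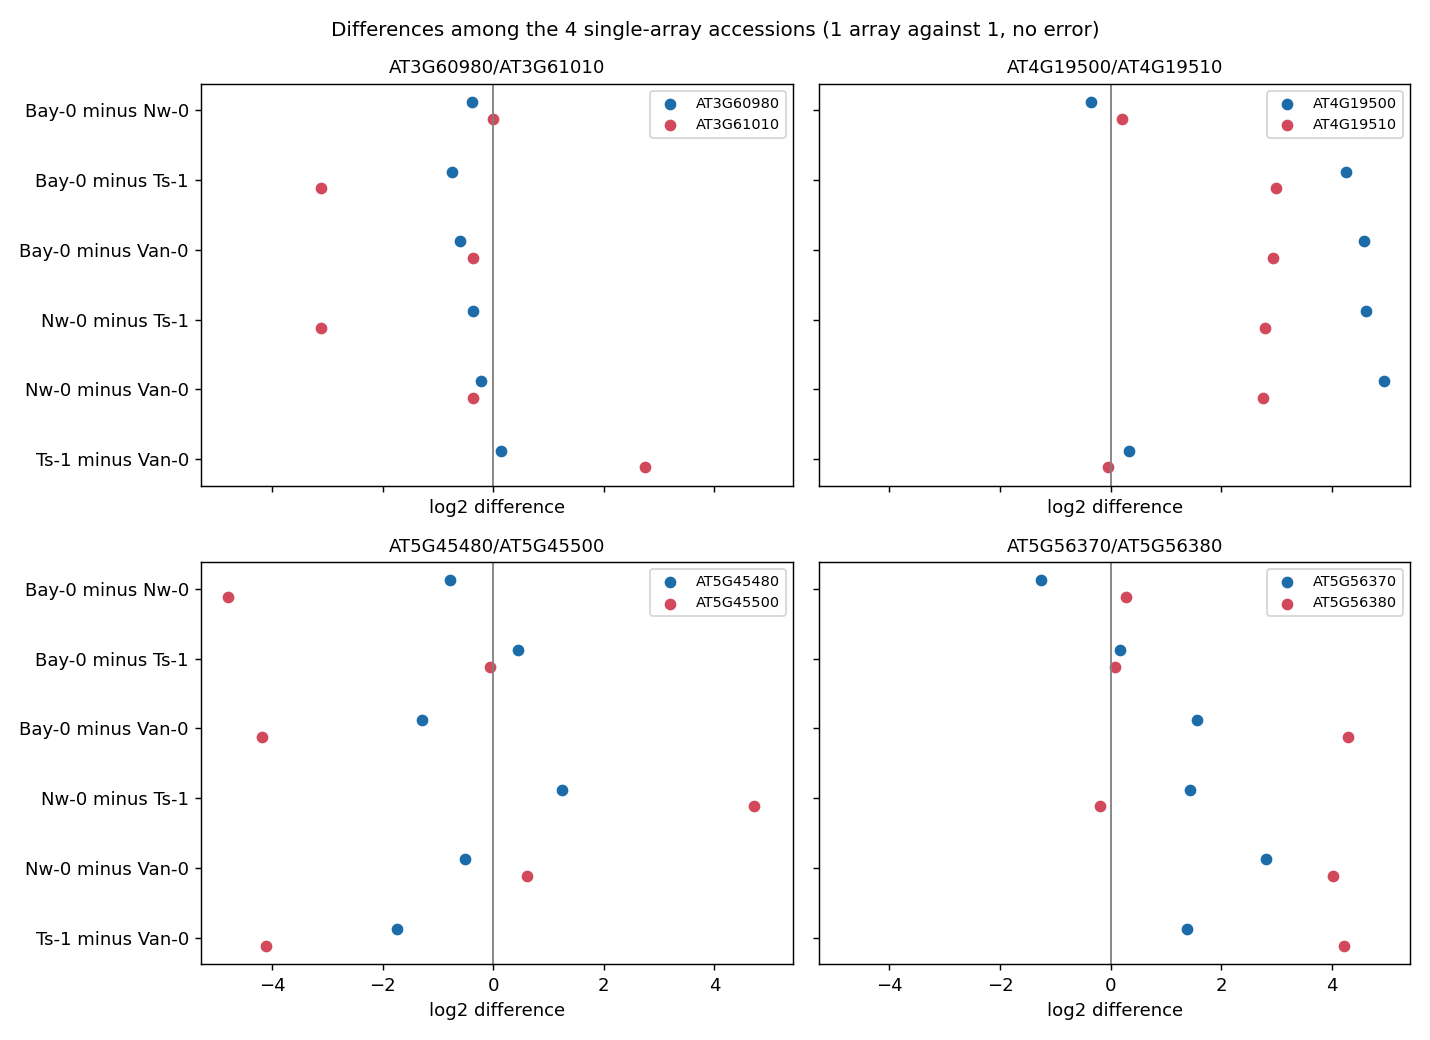
Log2 difference, first-named minus second-named accession, of each member in the 6 comparisons among the 4 single-array accessions. Each point sets 1 array against 1 and has no error bar. The second probe set of AT3G61010 is not shown. For AT4G19500 and AT4G19510 the 4 comparisons of Bay-0 or Nw-0 with Ts-1 or Van-0 are far from 0, between 2.75 and 4.94, while AT3G60980 stays between -0.74 and 0.14 throughout.

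Taken by pair, both genes were at least 3-fold apart in the same direction in 6 of 24 cases, formed by 4 pairs and 6 comparisons. Among all pairs of consecutive measured probe sets the share was 0.0345%. Both were 3-fold apart in opposite directions in 0 of 24 (0.00863% of all), 1 of the genes in 8 (2.58% of all) and neither in 10. The 6 cases were 4 for AT4G19500 with AT4G19510, 1 for AT5G45480 with AT5G45500 and 1 for AT5G56370 with AT5G56380, and there were 0 for AT3G60980 with AT3G61010. These are counts over arrays that the cases share, with no test. They read AT3G61010 by its first probe set alone, while the shares over all pairs keep every probe set of a gene. The members were chosen for differing between accessions, and the shares over all pairs include them, so nothing is read from the counts against these shares. Most low values of the members lie below the lower quartile of their array, so the sizes of the differences do not rank the genes of a pair by how much their RNA changed.

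**Figure D4:**
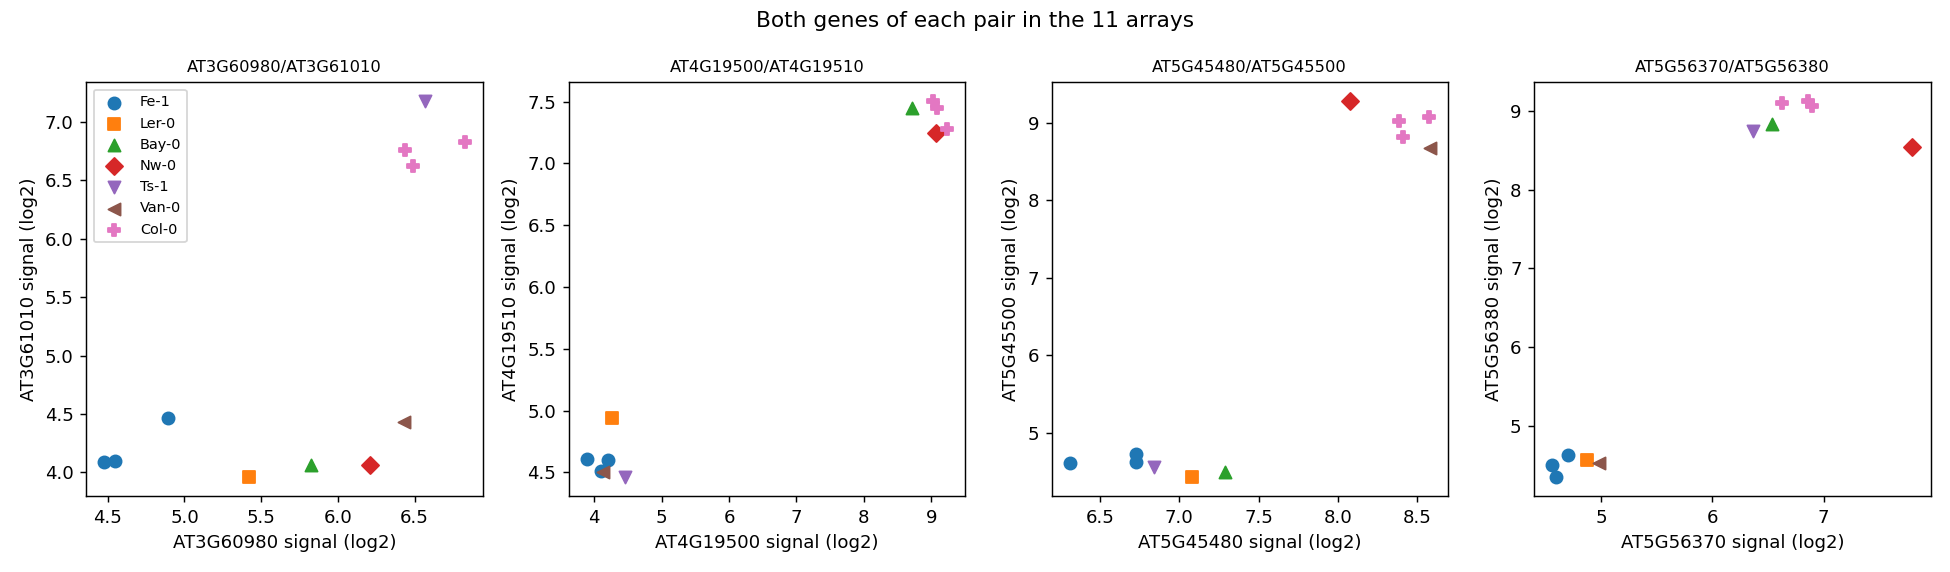
Log2 RMA value of the second gene against that of the first gene of each pair on the 11 arrays, 1 panel a pair and 1 colour an accession. AT3G61010 is shown by its first probe set alone. In the 3 pairs other than AT3G60980 with AT3G61010, arrays low for 1 gene are low for the other, and in the chromosome 3 pair Bay-0, Nw-0 and Van-0 lie at 5.83 to 6.43 for AT3G60980 and 4.06 to 4.43 for AT3G61010.

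No neighbour of the pairs reached 3-fold in the pooled difference that chose the members. The 10 measured genes on each side of each pair gave 80 neighbours, of which 0 were 3-fold different in Fe-1/Ler-0 against Col-0 in the limma fit. Over all probe sets 0.703% were, in either direction. A count of 0 among 80 is near that share, so it is not read as a result about the neighbours. Without the fold limit 5 were lower and 5 were higher at an adjusted p under 0.05, against 4.65% and 7.69% of all probe sets, and 9 and 14 had an unadjusted p under 0.05. Their differences ran from -0.92 to 1.10, with a median of 0.05. The counts rested on the arrays used and were 9 lower and 12 higher without Ler-0, and 2 to 3 lower and 1 to 2 higher without any 1 array of Fe-1 or Col-0. The pooled value can hide a difference between Fe-1 and Ler-0. AT5G45310, a gene near AT5G45480 singled out after its values were seen, was at 9.58 in Ler-0 and 4.41 in Fe-1, against 5.61 in Col-0, so that Ler-0 was 15.6-fold above Col-0 while the pooled difference was 0.09 (SE 1.27, adjusted p = 0.971). It was the 1 neighbour of 80 that was 3-fold from Col-0 in Ler-0, and 0 were in Fe-1. No share over all probe sets was computed for these counts.

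The measured genes directly beside each pair differed by -0.44 to 0.30. A gene in this place that was called lower would have formed a further pair with the member beside it. That none was called lower thus follows from how the pairs were chosen and is not read as a result. Next to the resistance pair, AT4G19520, which also encodes a TIR-NBS-LRR protein, differed by -0.31 (adjusted p = 0.116) and AT4G19480 by 0.10 (adjusted p = 0.499). Next to AT5G45480 with AT5G45500, AT5G45430 differed by -0.18 (adjusted p = 0.53) and AT5G45510 by -0.21 (adjusted p = 0.327). AT5G56350 (0.21, adjusted p = 0.318) and AT5G56450 (0.30, adjusted p = 0.055) next to the F-box pair did not pass. AT3G60940 next to the chromosome 3 pair was lower (-0.44, 1.36-fold, adjusted p = 0.0352), and AT3G61080 on its other side differed by 0.05 (adjusted p = 0.808).

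**Figure D5:**
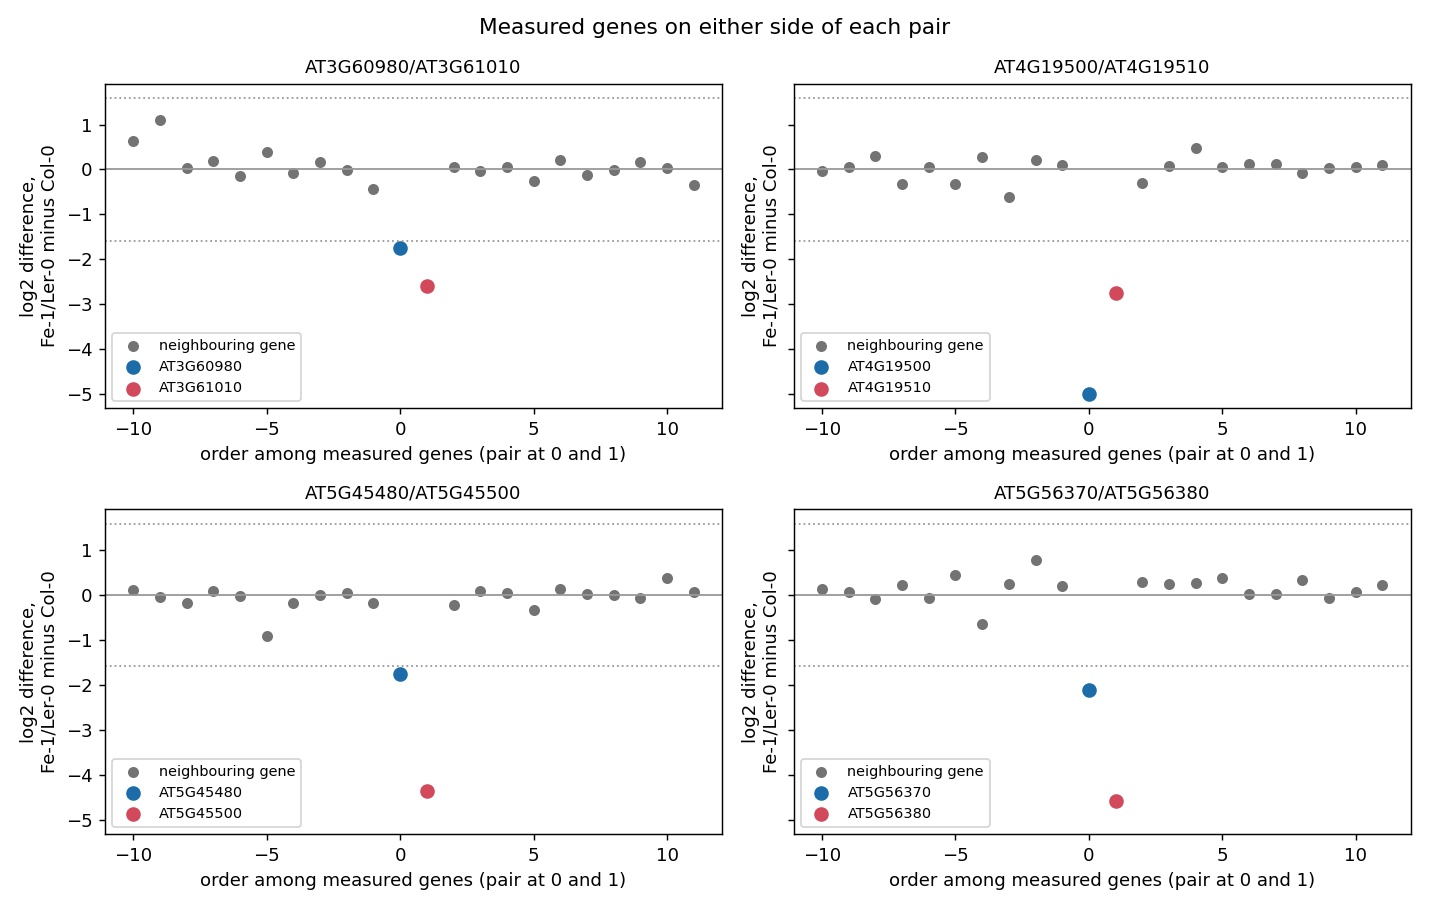
Log2 difference Fe-1/Ler-0 minus Col-0 (vertical axis) of the 10 measured genes on either side of each pair, in chromosome order, with the genes of the pair at 0 and 1. Dotted lines mark 3-fold. The neighbours lie between -0.92 and 1.10, and the shown probe sets of the pairs between -1.75 and -4.999. The second probe set of AT3G61010, at -0.44, lies within the range of the neighbours and is not shown.

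Other resistance and immune signalling genes were read from a list of 35, of which 3 could be measured by name. CSA1, a TIR-NBS-LRR receptor gene, was lower in Fe-1/Ler-0, with 5.08, than in Col-0, with 7.73, a difference of -2.65 (adjusted p = 0.000607). SAG101, which encodes a partner of EDS1 in signalling from such receptors, was higher in Fe-1/Ler-0 by 1.11 (adjusted p = 0.00158), and AT1G31540, a TIR-NBS-LRR gene, differed by 0.07 (adjusted p = 0.535). These p-values come from the fit that took the Ler-0 array as a replicate beside those of Fe-1, and treat arrays, not accessions, as replicates. The median of the 3 differences was 0.07, against 0.06 over all probe sets.

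CSA1 divided the other accessions unlike RPP2A and RPP2B, with 8.49 in Bay-0, 5.02 in Nw-0, 7.41 in Ts-1 and 9.68 in Van-0. Its difference between Bay-0/Nw-0 and Ts-1/Van-0 was -1.79 (adjusted p = 0.00637), and it rested on single arrays, since it was -0.05 without Nw-0 (adjusted p = 0.958) and -0.66 without Van-0 (adjusted p = 0.306). SAG101 differed by -0.59 in that comparison (adjusted p = 0.0484) and by 0.11 without Nw-0 (adjusted p = 0.803), and AT1G31540 by 0.17 (adjusted p = 0.351). The median of the 3 was -0.59, against -0.01 over all probe sets.

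The genes elsewhere in the genome whose 7 accession means, centred on their own mean, lay nearest to the mean of a pair were found by the root mean square difference on the log2 scale. Nearest to the resistance pair were AT3G43960 (0.88), AT1G66090 (1.04) and AT1G64250 (1.13). Nearest to AT5G45480 with AT5G45500 were AT3G27980 (0.54), AT4G13210 (0.77) and AT2G02960 (0.88), and nearest to the F-box pair were AT3G43670 (0.42), AT4G20480 (0.70) and AT3G57160 (0.99). The distances were smaller for the chromosome 3 pair, with AT4G16710 (0.22), AT2G42320 (0.23) and AT1G17160 (0.25), although its own genes differed from each other. AT4G16710, for example, was at 6.78 in Fe-1, 7.17 in Ler-0, 7.34 in Bay-0, 7.07 in Nw-0, 8.98 in Ts-1, 7.52 in Van-0 and 8.90 in Col-0. The distance is not scaled to the range of a pair and tends to be smaller where that range is narrow, so it does not rank the pairs. Each of these distances rests on 7 accessions, 5 of them with 1 array.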

How the data were processed

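RNA of torpedo-stage embryos was hybridised to 11 Affymetrix ATH1 arrays. The authors normalised the arrays with RMA and deposited log2 values per probe set, and the version of RMA and the chip definition were not given in the sources used here. Its steps are a correction for background, normalisation of the arrays to each other by quantiles and a summary of each probe set. The values were used as deposited. Precision is limited by how many arrays there were. The 64 chip controls were left out, which left 22746 probe sets, of which 13513 had 1 gene in the platform annotation, 503 had several and 8730 were not listed. By Entrez gene ID 13436 were matched to the TAIR10.1 table, used for names and gene order.

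The limma package (version 3.58.1, R 4.3.3) was fitted over all probe sets, with Benjamini-Hochberg adjustment. A probe set was called if it differed 3-fold or more with an adjusted p under 0.05. Fe-1/Ler-0 was compared with Col-0 in a fit of 7 arrays, which took the Ler-0 array as a replicate beside those of Fe-1. All other comparisons used 1 mean per accession over 11 arrays, and those of 1 array against 1 are given as differences with no p-value. The fits were run on simulated data, in which every array had independent normal noise with the replicate spread of Fe-1 and Col-0. Such data cannot test whether single arrays vary like those replicates. The members and lists were chosen with earlier results of these data known, among them a difference of AT3G61010 by ZLL dependency. Named genes were the members, neighbours past 3-fold, up to 4 of the resistance list with the lowest adjusted p and the 3 genes nearest in pattern to each pair. The measured genes directly beside each pair and the next pair below the limit were added after the values were seen. Alternatives were other p and fold limits, normalisations, filters, moderation and sets of arrays. Replicate numbers of Fe-1 and Col-0 come from the labels. Sequences of the members were not used here.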

Additional observations from a re-analysis of the deposited data

Results flagged for a closer look

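Dixon's rule was applied to each of the 9 probe sets within the Fe-1/Ler-0 arrays, the 6 ZLL-dependent arrays and the 5 ZLL-independent arrays. Chance meets it in about 1 in 20 groups if a group has a single normal spread. These groups mix accessions, and the probe sets were chosen for differing between accessions, so the flags are not read against that rate. No share over all probe sets was computed. The highest or lowest array stood apart from the nearest other array by more than the critical value for 7 combinations of probe set and group, all in the ZLL groups. For AT5G45500 these were Nw-0 among the ZLL-dependent arrays, at 9.28 against 4.73 in the nearest, and Ts-1 among the ZLL-independent arrays, at 4.56 against 8.67. For AT5G45480 it was Ts-1, at 6.84 against 8.38. Van-0 stood apart among the ZLL-independent arrays for AT5G56370, at 4.98 against 6.36, for AT5G56380, at 4.53 against 8.75, and for the first probe set of AT3G61010, at 4.43 against 6.63. That probe set was also at 4.47 in Fe-1 replicate 3, against 4.10 in the nearest of the ZLL-dependent arrays. All of these but the last are accessions represented by 1 array, so an accession and its array cannot be told apart.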

How the results depend on the processing

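Of 438 combinations of a named difference and a setting, 412 were counted as unchanged. Between Bay-0/Nw-0 and Ts-1/Van-0 this meant the same direction and the same side of the threshold. Leaving out an array of Fe-1, Ler-0 or Col-0 cannot change the size of these differences. Other limits, filters and moderation cannot change the size of the pooled differences. Part of the 412 was thus fixed in advance, and the number is no measure of stability. The pooled differences of Fe-1 and Ler-0 from Col-0 were not held to the 3-fold limit in this count. Some counted as unchanged fell below it, from -1.75 in the main fit. AT5G45480 was at -1.56 with the seed coat signal left out, and AT3G60980 at -1.55 with 1 mean per accession. The setting with the seed coat signal left out lacks Van-0 and replicates 2 and 3 of Fe-1. It keeps Ler-0, where DFR was at 7.97. Members called between Bay-0/Nw-0 and Ts-1/Van-0 numbered 4, 4 with any 1 array of Fe-1, Ler-0 or Col-0 left out, 4 with the replicate block and 0 with only the 4 arrays. Leaving out Bay-0, Nw-0, Ts-1 or Van-0 leaves 1 array in a group, and which members were past 3-fold could then change. Without Van-0, AT5G56380 was at -0.058 and AT5G45500 at 2.33. Without Ts-1, the first probe set of AT3G61010 was at -0.37 and AT5G45500 at -1.79. Members called over the 6 comparisons numbered 20, 20 with the replicate block, 8 with the seed coat signal left out and 8 to 20 with 1 array left out. Leaving out a single-array accession removes 3 of the 6 comparisons by construction. Probe sets lower in Fe-1/Ler-0 numbered 105, 1057 with no fold limit, 95 with the replicate block and 90 to 211 with 1 array left out. Consecutive genes both lower numbered 4 pairs, 46 with no fold limit, 2 with the seed coat signal left out and 4 to 7 with 1 array left out. Lower neighbours numbered 5, 9 by unadjusted p, 2 with the replicate block, 1 with the seed coat signal left out and 2 to 9 with 1 array left out. Higher neighbours numbered 5, 14 by unadjusted p, 3 after renewed quantile normalisation, 2 after median centring, 2 with the replicate block, 11 with 1 mean per accession, 1 with the seed coat signal left out and 1 to 12 with 1 array left out. Shared states numbered 13, and 12 to 13 with 1 array of Fe-1, Ler-0 or Col-0 left out.

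Between Bay-0/Nw-0 and Ts-1/Van-0 the sign turned for AT5G45480 (0.0055 after median centring, 0.85 with the seed coat signal left out and -0.90 to 0.85 with 1 array left out), AT5G45500 (-2.12 to 2.67 with 1 array left out), AT5G56380 (-0.058 with the seed coat signal left out and -0.058 to 4.16 with 1 array left out) and SAG101 (-1.30 to 0.11 with 1 array left out). Beyond the fewer arrays or accessions that some settings use, the cause was not tested. Deviations of Fe-1 and Col-0 arrays with the same replicate number correlated at 0.231, 0.035 and 0.112, so the numbers were not taken to pair the arrays. Leaving out the lowest 25% of probe sets by mean kept 8 of the 9 member probe sets. Each of 5 accessions has 1 array, which limits every comparison among them.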
